A study of Mus musculus with 12 samples.

Results

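The comparison described here sets microglia without the fructose transporter GLUT5 against control microglia 1 day after oxygen-glucose deprivation (OGD), gene by gene over the autosomes. It takes the 3 knockout and the 3 control libraries whose titles name 1 day of recovery, 6 of the 12 libraries of the series. Genes on X and Y were left out of the description, which leaves 18165 autosomal genes of the 18842 genes tested. Microglia, the resident macrophages of the brain, were enriched on a density gradient from dissociated, perfused mouse brain and sorted. OGD, a withdrawal of oxygen and glucose, models ischaemia, and the labels do not describe how it was applied or cultured. RNA was sequenced after 6 h of OGD followed by 24 h of recovery, and the other 6 libraries were taken straight after OGD. The control group, here WT-recovery, had the genotype Cx3cr1EGFP, a reporter that marks microglia green. The knockout group, here KO-recovery, had the genotype Slc2a5-/-::Cx3cr1EGFP, so both groups carried the reporter and differed by the deletion of Slc2a5, the GLUT5 gene. The labels do not say whether 1 or both copies of Cx3cr1 carried the reporter, and the knockout genotype as written is not limited to microglia. Ages were labelled P35-P40 for every library, and every library was labelled male. The treatment field of WT-recovery replicate 1 states that there was no recovery, against its title and library name. Nothing in the labels ties replicates to different animals or cultures. The p-values therefore measure the spread between libraries of a group, estimated over all 12 libraries of the series together, which may be technical.

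GLUT5 carries fructose across the cell membrane without using energy, and among brain cells it is known from microglia. After an ischaemic insult microglia turn on genes for chemokines, antigen presentation, matrix proteases and lipid handling, and they clear dead cells. Class II molecules of the major histocompatibility complex (MHC) show peptides to CD4 T cells and are made by few cell types, under the co-activator CIITA, which acts through X and Y boxes in their promoters. Class I molecules show peptides to CD8 T cells, are made by nearly all cells and rise with interferons.

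Motif matches were set beside genotype differences only within the class II, class I and interferon-stimulated gene lists. The promoters below are those of H2-Aa and H2-Eb1, which fell, H2-DMb1, which did not pass the test, and H2-Q6 and Oas1a, which rose. They are the 250 bases before the RefSeq start site (GRCm38.p6), written 5′ to 3′ on the strand of the gene, with motif matches in capitals. The motifs searched, on both strands, were the Y box core CTGATTGG, the X box CCNAG, 2 free bases, AC, 1 free base and GATG, and the interferon-stimulated response element (ISRE) of GAAA, 2 free bases and GAAA. Among all 32851 mouse promoters of this length 3.83% hold the Y box, 0.0487% the X box and 2.98% the ISRE. H2-Aa (chr17:34287824-34288073, minus strand), the class II alpha chain gene of I-A, and H2-Eb1 (chr17:34305617-34305866, plus strand), the beta chain gene of I-E, each hold a Y box, and both genes fell.
H2-Aa: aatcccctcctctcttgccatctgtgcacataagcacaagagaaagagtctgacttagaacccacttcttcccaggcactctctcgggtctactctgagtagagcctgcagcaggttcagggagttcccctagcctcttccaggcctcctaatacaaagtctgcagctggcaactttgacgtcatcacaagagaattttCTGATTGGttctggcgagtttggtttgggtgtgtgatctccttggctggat
H2-Eb1: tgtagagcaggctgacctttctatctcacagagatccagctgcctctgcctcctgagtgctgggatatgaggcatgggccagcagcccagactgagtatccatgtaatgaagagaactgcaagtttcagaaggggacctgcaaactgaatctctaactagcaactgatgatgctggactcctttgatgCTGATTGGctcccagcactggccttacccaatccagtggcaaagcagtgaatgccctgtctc
H2-DMb1 (chr17:34152941-34153190, plus strand), which encodes a chain of the peptide exchange factor of class II, holds the X box and stood at a log2 fold change of -0.18 without passing the test. H2-Q6 (chr17:35424600-35424849, plus strand), a nonclassical class I gene that rose, holds a Y box on the opposite strand.
H2-DMb1: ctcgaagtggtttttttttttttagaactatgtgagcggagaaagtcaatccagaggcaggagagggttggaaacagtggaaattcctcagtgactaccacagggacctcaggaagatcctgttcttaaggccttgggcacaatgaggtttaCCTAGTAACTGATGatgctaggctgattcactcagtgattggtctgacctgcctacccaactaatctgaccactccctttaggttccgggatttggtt
H2-Q6: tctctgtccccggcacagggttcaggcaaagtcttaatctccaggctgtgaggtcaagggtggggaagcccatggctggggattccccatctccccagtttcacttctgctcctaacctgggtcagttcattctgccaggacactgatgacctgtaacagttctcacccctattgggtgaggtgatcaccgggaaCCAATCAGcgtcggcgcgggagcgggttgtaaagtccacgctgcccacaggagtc
Oas1a (chr5:120907526-120907775, minus strand), which encodes an antiviral oligoadenylate synthetase, rose and holds 2 overlapping ISRE matches just before its start.
Oas1a: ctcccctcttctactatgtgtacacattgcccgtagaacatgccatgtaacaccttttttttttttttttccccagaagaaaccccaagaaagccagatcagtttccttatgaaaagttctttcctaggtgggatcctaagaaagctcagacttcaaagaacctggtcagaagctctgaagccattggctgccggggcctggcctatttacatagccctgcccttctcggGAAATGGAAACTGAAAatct
A Y box was found in the promoters of 4 of 11 class II list genes with a RefSeq entry (H2-Aa, H2-Eb1, H2-Eb2 and H2-Oa) and of 6 of 19 class I list genes. The X box was found in 1 class II list gene, H2-DMb1. Only exact matches were counted, so stretches 1 base off a motif were missed. The windows of H2-Eb1 (X box) and H2-DMb1 (Y box) each hold such a stretch. An ISRE was found in 15 of 29 interferon-stimulated genes, in 3 of the 8 with an entry that were called higher in KO-recovery and in 12 of the 20 that were not called. H2-Ab1 had no entry. These matches describe the letters of these windows and nothing about binding.

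Total counts were 9885259 to 15495478 in WT-recovery and 13407885 to 19915479 in KO-recovery, and the share from the mitochondrial genome was 7.35% to 18.4% and 4.72% to 10.5%. The highest share was in WT-recovery replicate 1. Slc2a5 (ENSMUSG00000028976.10, chr4:150119283-150144169, GRCm38) had 1, 2 and 0 counts in WT-recovery, and in KO-recovery 1, 0 and 0, at or under a floor of 3 counts over the group, so it could not check the labels at this time and no fold is given. Although all libraries were labelled male, Xist, an RNA of the inactive X of female cells, was at 0, 0.183 and 0 CPM (counts scaled to the size of the library) in WT-recovery and at 353.9, 334.8 and 312 CPM in KO-recovery. The Y-linked Ddx3y was at 44.8, 49.7 and 47.5 CPM against 14.7, 14.8 and 21.5 CPM. In every recovery result below, genotype and this difference in sex-linked transcripts therefore cannot be told apart. The OGD libraries had 151 to 159 CPM of Xist in WT-OGD and 231 to 244 CPM in KO-OGD, so WT-recovery was the only group with almost none. Comparisons between the times, interaction terms included, therefore also span a change in sex-linked transcripts between the 2 control groups, and both cannot be told apart. KO-recovery replicates 1 and 3 stood apart from replicate 2 in muscle and connective tissue genes, described further down. Calls of named genes that were lost without these 2 libraries are marked beside the results, as are list counts that moved by over 1.5 times when a library or these 2 were left out. List counts that moved under other settings are marked only in part. Over all genes tested, X and Y included, the first principal component of the 6 libraries (55.7% of the variance) separated the genotypes, and the second (16.3%) set KO-recovery replicate 2 apart from replicates 1 and 3.

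Loss of Slc2a5 went with broad change after recovery. By edgeR's quasi-likelihood test with Benjamini-Hochberg adjustment, 4014 autosomal genes (22.1%) were called at an adjusted p under 0.05, 1844 higher (10.2%) and 2170 lower (11.9%) in KO-recovery. The shares of 10.2% and 11.9% stand beside every list count after recovery given below. Beside list counts right after OGD stand 0.93% higher and 6.47% lower. Beside list counts by interaction stand 2.81% higher and 2.33% lower. Falls were the larger changes: the median size of the log2 fold change was 1.05 among genes called lower and 0.52 among those called higher, and 1106 genes (6.09%) fell at least 2-fold against 367 (2.02%) that rose as much. The median of all autosomal genes was 0.01. In 3720 of the called genes (92.7%) the groups did not overlap, which held for 33.5% of all autosomal genes. Without WT-recovery replicate 1, whose treatment field differs from its title, 3990 genes were called, 3295 of them in common with the full comparison and in the same direction. Without KO-recovery replicates 1 and 3 the single KO library left, assumed to vary like the other groups, gave 3566 calls, 2494 of them in common. The count fell to 2534 without WT-recovery replicate 2. Calls were spread over all 19 autosomes, from 19.0% of genes on chromosome 12 to 25.3% on chromosome 18. Within 5 Mb of Slc2a5 on chromosome 4, 50 of 127 genes (39.4%) were called, and 5 to 10 Mb away 35.1% of 94, against 18.5% of 162 at 10 to 20 Mb and 22.4% of the 697 farther off. Genes named below are not marked for lying near Slc2a5, and the part of that position in their differences was not tested.

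**Figure D1:**
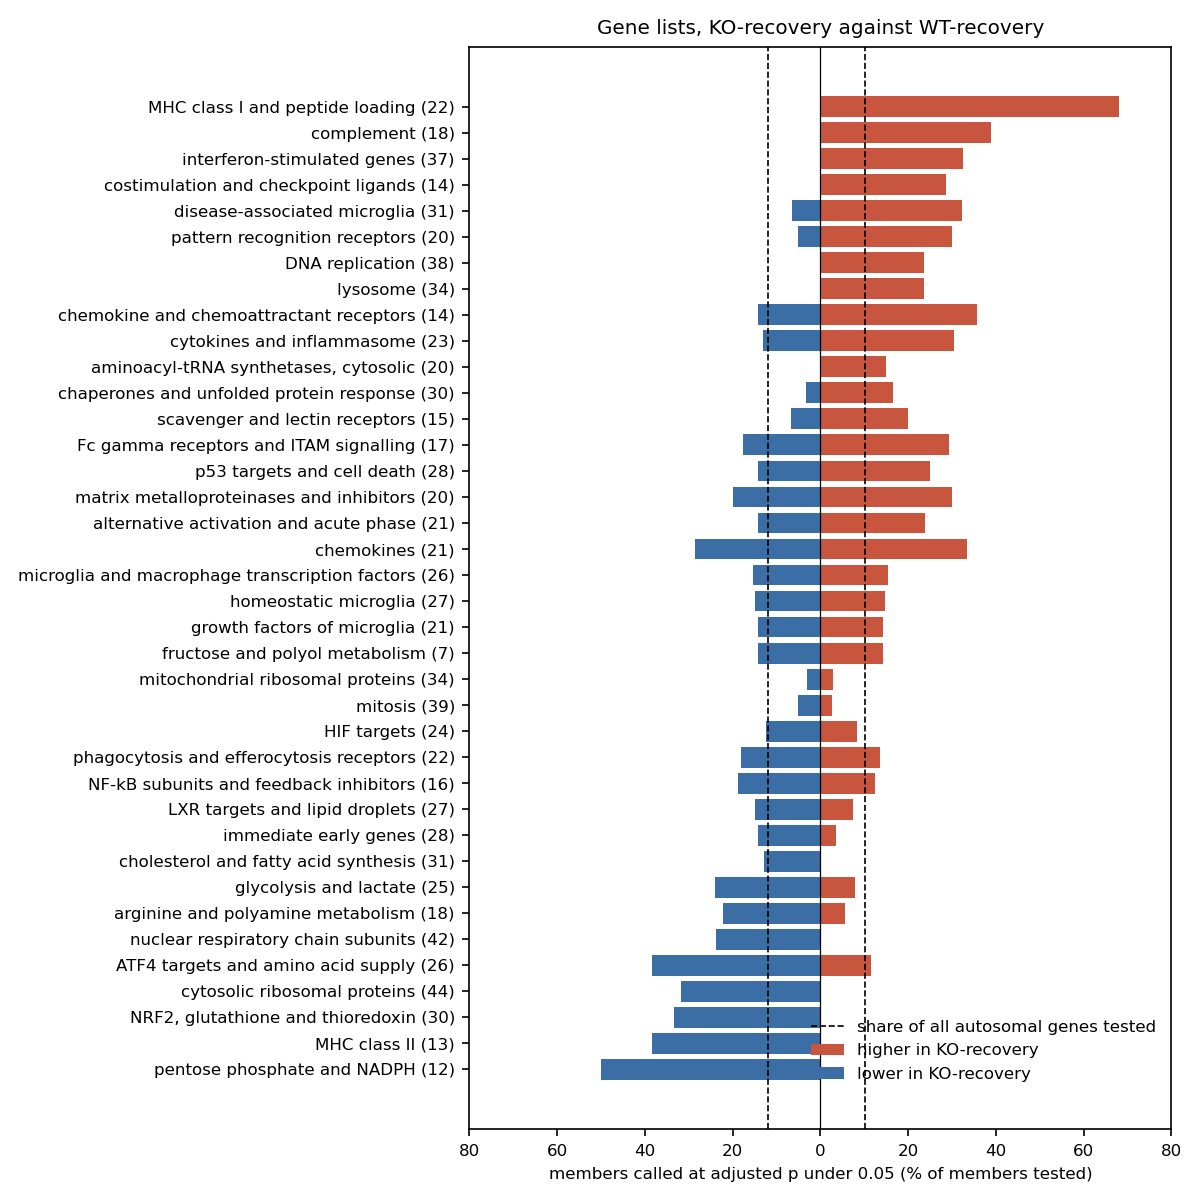
Share of the tested members of each gene list called higher (right) or lower (left) in KO-recovery than in WT-recovery, with the number tested in brackets; dashed lines mark the shares of all autosomal genes, 10.2% and 11.9%. MHC class I, complement and interferon-stimulated genes lie to the right, and pentose phosphate, MHC class II, NRF2 and cytosolic ribosomal protein genes to the left.

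The classical MHC class II genes were nearly off in KO-recovery. H2-Eb1 was at 31.97, 42.6 and 61.4 CPM in WT-recovery replicates 1 to 3 and at 1.19, 0.898 and 1.39 CPM in those of KO-recovery. For H2-Aa the values were 69.3, 77.5 and 106 CPM in WT-recovery and 3.12, 3.51 and 5.62 CPM in KO-recovery. The WT-recovery libraries had 59.5, 49.5 and 72.6 CPM of H2-Ab1, and the KO-recovery libraries 3.37, 3.18 and 4.12 CPM. Every KO library lay far below every WT library in these chain genes, with log2 fold changes -5.26 (SE 0.34, adjusted p = 1.74e-06), -4.36 (SE 0.34, adjusted p = 1.56e-05) and -4.07 (SE 0.25, adjusted p = 8.19e-07). Cd74, the invariant chain that guides class II molecules, went from 711, 619 and 799 to 137, 140.3 and 134 CPM (log2 fold change -2.37 with SE 0.16, adjusted p = 4.19e-07). Ciita, the co-activator of the family, went from 1.83, 3.17 and 3.33 to 0.793, 0.817 and 0.803 CPM (log2 fold change -1.82 with SE 0.33, adjusted p = 0.00127). In bulk RNA, fewer cells that make class II and less class II RNA per cell cannot be told apart.

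The other class II pathway genes tested did not pass. Of 15 listed genes 13 were measured above the filter, 5 were called lower, none higher, and the list's median log2 fold change was -0.18 against 0.01 over all autosomal genes. H2-DMa and H2-DMb1, the chains of the exchange factor, were at 140.1, 130.1 and 150 and 48.4, 41.8 and 43.4 CPM in WT-recovery and at 147, 166 and 142 and 36.5, 44.2 and 36.7 CPM in KO-recovery, so their groups overlapped. Their log2 fold changes were 0.11 and -0.18, and without KO-recovery replicate 2 H2-DMb1 passed at -0.28 (adjusted p = 0.0469). The 3 subunits of the RFX factor that binds the X box stood at 0.04 (Rfx5), -0.03 (Rfxap) and -0.01 (Rfxank), and Ctss, the protease that trims the invariant chain, at -0.08. None of these passed, with adjusted p from 0.177 to 0.942. H2-DMb2 and H2-Oa were at -0.29 and -0.15, also without passing. H2-Eb2 and H2-Ob were below the filter, with at most 0.163 CPM in a library. Right after OGD no member differed by genotype (median 0.06), and the recovery difference was lower than the OGD difference for H2-Eb1, H2-Aa, H2-Ab1 and Cd74 by interaction terms of -5.30, -4.41, -4.09 and -2.69 (adjusted p = 7.15e-05, 0.000476, 4.62e-05 and 1.50e-05). The count of 5 held in all but 1 of the 20 alternatives, which had 6. Cd74, Ciita, H2-DMa, H2-Oa, Rfx5 and Rfxank overlap exons of other annotated genes, and chains of one family resemble each other, so the split of reads among them is uncertain.

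**Figure D2:**
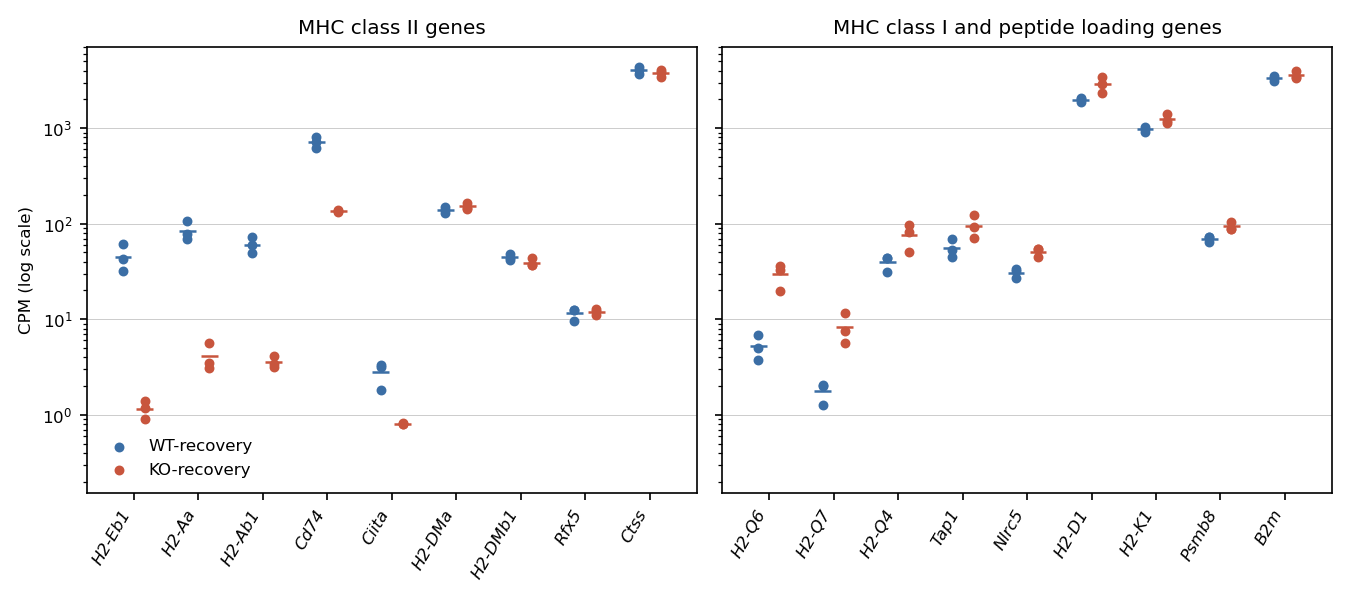
CPM on a log scale for MHC class II genes (left) and class I and loading genes (right); each point is 1 library, bars are group means. The KO-recovery points of H2-Eb1, H2-Aa, H2-Ab1, Cd74 and Ciita lie below all WT-recovery points, those of H2-DMa, H2-DMb1, Rfx5 and Ctss overlap them, and those of H2-Q6, H2-Q7 and Nlrc5 lie above.

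Markers of dendritic cells, professional makers of class II, moved in part with these genes. Of 15 listed markers 11 were tested, 5 were called lower and 1 higher, and their summed level was 251.5 to 316 CPM in WT-recovery and 172 to 186 CPM in KO-recovery. Among the falls were genes known from mature, migrating dendritic cells. Ccr7 was at 3.08, 1.95 and 2.15 CPM in WT-recovery replicates 1 to 3 and at 0, 0 and 0.107 CPM in those of KO-recovery. For this gene, the receptor that leads cells to lymph nodes, the counts of 27, 32 and 29 against 0, 0 and 2 give a depth-scaled ratio of WT over KO of 58.2 (exact 95% counting interval 15.6 to 487.7). Ccl22 and Ccl17, ligands of the receptor CCR4, went from 65.8, 29.1 and 24.4 and 46.5, 45.05 and 57.5 CPM to 1.98, 1.39 and 2.68 and 2.03, 1.39 and 5.997 CPM, log2 fold changes -4.24 and -3.93 (adjusted p = 0.000347 and 0.000103). Fscn1, an actin bundling protein, fell by 2.96 on the log2 scale (adjusted p = 0.000304). The lineage genes Zbtb46, Xcr1 and Clec9a, chosen here after their values were seen, stood at 0.21, 0.34 and 0.43 without passing. Flt3 was below the filter and Siglech was at 0 in all 6 libraries. Itgae rose by 0.52, a call lost without KO-recovery replicate 1 or 2 and without WT-recovery replicate 1 or 2. The part of dendritic cells in the class II result was not tested.

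MHC class I genes rose as a group while class II fell. Of 22 listed genes for class I chains, peptide transport and loading, 15 were called higher and none lower, with a median log2 fold change of 0.40, and between 10 and 16 were higher over the 20 alternatives. H2-Q6 was at 3.77, 6.78 and 5.03 CPM in WT-recovery replicates 1 to 3 and at 32.9, 35.8 and 19.9 CPM in those of KO-recovery. For H2-Q7 the values were 1.26, 2.08 and 1.997 CPM in WT-recovery and 7.54, 11.5 and 5.67 CPM in KO-recovery. Both stood higher in all 3 KO libraries, by 2.46 (SE 0.34, adjusted p = 0.000485) and 2.14 (SE 0.33, adjusted p = 0.000408), and as near copies their reads may be shared. Nlrc5, the co-activator of class I genes, rose from 26.7, 33.6 and 31.9 to 54.4, 54.7 and 44.4 CPM (log2 fold change 0.73 with SE 0.11, adjusted p = 0.000392). Psmb8, a subunit of the immunoproteasome, rose by 0.43 (adjusted p = 0.00245). B2m, the light chain of class I, was the lowest of the list at 0.10 and did not pass. H2-D1 and H2-K1, which encode classical class I chains, rose by 0.54 and 0.34 (adjusted p = 0.00417 and 0.0183). B2m, H2-D1 and H2-K1 were chosen after their values were seen. Right after OGD no gene of the list was called (median 0.18). By interaction, 2 differed between times, H2-Q6 (1.90) and Nlrc5 (0.61). Nlrc5 and Psmb8 overlap other annotated genes.

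Costimulatory ligands and interferon-stimulated genes leaned the same way in smaller numbers. Cd86, a ligand of CD28 on T cells, went from 20.1, 20.3 and 20.2 to 34.4, 38.5 and 24.8 CPM (log2 fold change 0.68 with SE 0.14, adjusted p = 0.00292), and no KO library reached down to the WT values. Of 14 such genes 4 rose and none fell: Cd86, Tnfsf9 (0.94, which overlaps another gene), Lgals9 (0.35) and Cd80 (0.44). The call of Cd80 ended without KO-recovery replicate 1 or 2 or WT-recovery replicate 2 or 3. Of the list 1 member was called lower without KO-recovery replicate 3, KO-recovery replicates 1 and 3 or WT-recovery replicate 1. Of 37 interferon-stimulated genes 12 rose and none fell, with a median of 0.29, and without WT-recovery replicate 3 only 7 rose. In this list 1 gene fell without KO-OGD replicate 2, with DESeq2, with no low-count filter and with only the 6 recovery libraries. Irf7 was at 14.04, 24.1 and 9.02 CPM in WT-recovery replicates 1 to 3 and at 70.1, 78.5 and 45.9 CPM in those of KO-recovery. Irf7 encodes the master factor of type I interferon induction, rose by 2.02 (SE 0.33, adjusted p = 0.00190) and overlaps another gene. The antiviral GTPase gene Mx1 rose by 1.12, Oas1a by 0.64 and the transcription factor gene Irf1 by 0.49 (adjusted p = 0.000857, 0.00145 and 0.00140). The other 25 tested members did not pass. Only Mx1 differed from the OGD comparison by interaction (1.40, adjusted p = 0.0120), among the 37 tested.

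Chemokine genes divided into those that rose and those that fell. Of 21 measured, 7 rose and 6 fell. Ccl5 was at 9.82, 6.104 and 3.99 CPM in WT-recovery replicates 1 to 3 and at 22.7, 29.8 and 20.1 CPM in those of KO-recovery. For Ccl2 the values were 215, 186 and 138 CPM in WT-recovery and 473, 468 and 326 CPM in KO-recovery. The WT-recovery libraries had 88.4, 91.6 and 60.1 CPM of Pf4, and the KO-recovery libraries 235, 286 and 421 CPM. CCL5 and CCL2 draw T cells and monocytes and PF4 is a platelet-type chemokine also made by macrophages. Their log2 fold changes were 1.90, 1.23 and 1.97 (adjusted p = 0.000163, 0.000459 and 4.70e-05), with every KO library above every WT library. Ccl8, another monocyte chemokine, went from 2.28, 2.26 and 1.85 to 15.3, 17.7 and 4.71 CPM (log2 fold change 2.55 with SE 0.43, adjusted p = 0.00123), with KO-recovery replicate 3 the lowest of its group. Ccl3 rose by 0.69 (adjusted p = 0.000645). Falls beside Ccl17 and Ccl22 included 2 ligands of the neutrophil receptor CXCR2. Cxcl3 went from 19.5, 15.5 and 8.58 to 3.77, 3.35 and 4.34 CPM (-1.90, adjusted p = 0.000230), and Ppbp from 3.197, 3.91 and 7.32 to 0.198, 0.0817 and 0.428 CPM (-4.24, adjusted p = 0.000277). By interaction with the OGD difference 3 were higher, among them Ccl2 and Pf4 (1.12 and 1.81), and 4 lower, namely Cxcl3, Ppbp, Ccl17 and Ccl22 (-2.11, -5.96, -4.46 and -5.06). That of Ccl22 did not pass without KO-recovery replicates 1 and 3 (-5.63, adjusted p = 0.0636).

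Receptors for these and other attractants also moved. Of 14 measured 5 rose and 2 fell. C3ar1, the receptor of complement C3a, went from 436, 397 and 412 to 801, 873 and 644 CPM (log2 fold change 0.90 with SE 0.12, adjusted p = 0.000132). Ccr1 rose by 0.51. Ccr1l1 was at 50.4, 73.5 and 82.8 CPM in WT-recovery replicates 1 to 3 and at 156, 116 and 153 CPM in those of KO-recovery. This near copy of Ccr1 rose by 1.03 (adjusted p = 0.000799), and its difference had been far larger right after OGD, at 7.84. The formyl peptide receptors, which sense bacterial and mitochondrial peptides, fell: Fpr1 from 76.6, 92.5 and 89.6 to 32.7, 32.2 and 46.3 CPM (log2 fold change -1.22 with SE 0.14, adjusted p = 4.53e-05) and Fpr2 by 1.10 on the log2 scale (adjusted p = 0.000155). Ccr1 with Ccr1l1 and Fpr1 with Fpr2 are close copies, Fpr2 also overlaps Fpr3, and the split of their reads is uncertain.

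**Figure D3:**
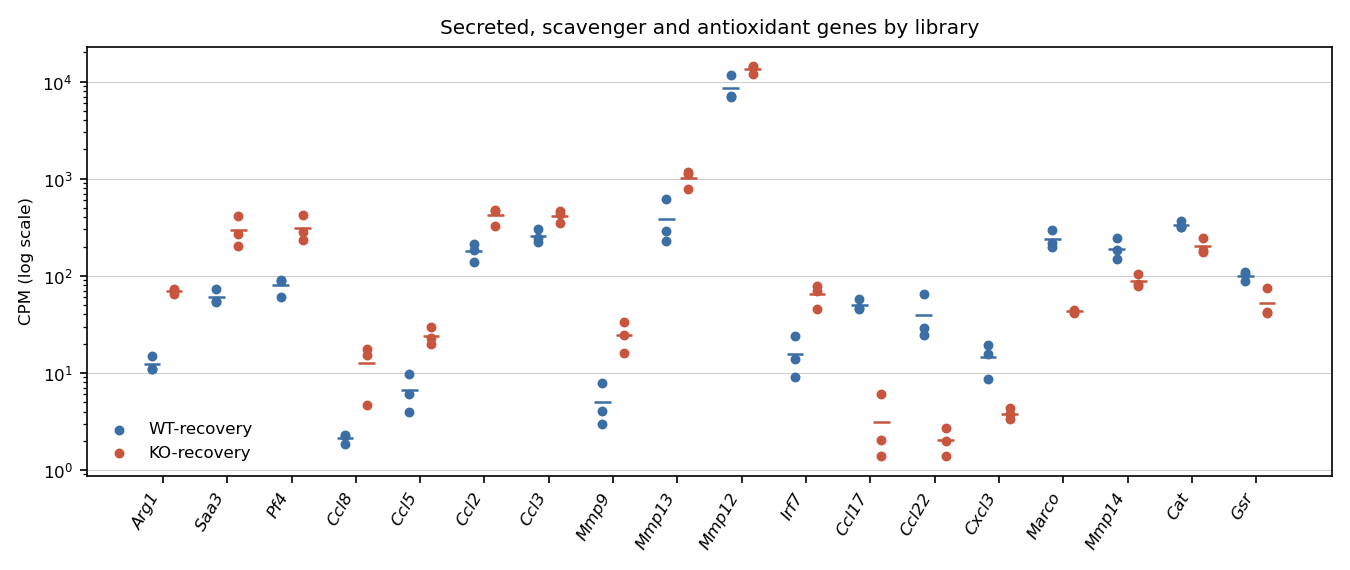
CPM on a log scale for secreted, scavenger and antioxidant genes with Irf7; each point is 1 library, bars are group means. Genes from Arg1 to Irf7 are higher in KO-recovery and those from Ccl17 to Gsr lower, and Arg1, Ccl17, Ccl22 and Marco show wide gaps between the groups.

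The inflammasome genes Casp1 and Gsdmd and the necroptosis genes Ripk3 and Mlkl rose, while the genes of the cytokines IL-18 and IL-1 beta fell. Of 23 cytokine and inflammasome genes 7 rose and 3 fell (4 rose without KO-recovery replicate 2 or WT-recovery replicate 3, and 5 fell without KO-recovery replicate 3). Casp1, the protease of inflammasomes, went from 64.5, 71.05 and 66.4 to 106, 115 and 94.6 CPM (log2 fold change 0.64 with SE 0.08, adjusted p = 0.000108). Gsdmd, the pore protein it cuts, went from 76.4, 66.4 and 63.3 to 106, 123 and 84.5 CPM (log2 fold change 0.61 with SE 0.12, adjusted p = 0.00182). Groups did not overlap in either. Il18 went from 34.8, 48.95 and 48.1 to 18.4, 22.3 and 16.4 CPM (log2 fold change -1.22 with SE 0.15, adjusted p = 6.70e-05), and Il1b from 11.1, 17.8 and 12.1 to 8.33, 4.98 and 4.07 CPM (log2 fold change -1.23 with SE 0.24, adjusted p = 0.00180). Both encode cytokines that caspase 1 matures, and Il1b overlaps an antisense gene. Ptgs2, the inducible prostaglandin synthase, fell by 1.92 (adjusted p = 0.00214), a call lost without KO-recovery replicates 1 and 3 (-1.80, adjusted p = 0.0975). Among 28 p53 and cell death genes 7 rose and 4 fell, or 2 fell without WT-recovery replicate 2 or KO-recovery replicates 1 and 3. Ripk3 and Mlkl, which carry out necroptosis, rose by 1.02 and 0.71 (adjusted p = 0.000155 and 0.000167), with KO values of 48.4, 55.6 and 40.96 and 38.2, 42.4 and 34.5 CPM against 28.5, 20.2 and 23.3 and 24.9, 23.01 and 22.6 CPM. Bcl2, which blocks apoptosis, rose by 0.81. Of the growth arrest genes, Gadd45b rose by 0.98 and Gadd45a fell by 1.45, a call lost without KO-recovery replicate 3 (-1.39, adjusted p = 0.0544) and without KO-recovery replicates 1 and 3 (-1.59, adjusted p = 0.152). The p53 target Phlda3 fell by 0.67, which did not pass with KO-recovery replicates 1 and 3 left out (-0.46, adjusted p = 0.0829).

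Single NF-kB and immediate early genes passed, in counts that stand beside 10.2% higher and 11.9% lower among all autosomal genes. Nfkbia, the inhibitor that NF-kB induces to shut itself off, went from 56.9, 61.95 and 62.4 to 32.03, 29.1 and 44.4 CPM (log2 fold change -0.78 with SE 0.12, adjusted p = 0.000394). Of 16 NF-kB genes 2 rose and 3 fell. Traf1, a NF-kB target, rose from 3.08, 2.93 and 1.63 to 9.91, 11.8 and 4.66 CPM (log2 fold change 1.79 with SE 0.33, adjusted p = 0.00147), and the other rise, Birc3, did not pass without KO-recovery replicate 1 or 2 or WT-recovery replicate 1. Of the other falls, Bcl3 (-0.53) lost its call without KO-recovery replicate 1 (-0.47, adjusted p = 0.0504) and without KO-recovery replicates 1 and 3 (-0.36, adjusted p = 0.210), and Nfkbiz (-0.91) without KO-recovery replicate 2 (-0.75, 0.0501) or WT-recovery replicate 3 (-0.88, 0.0532). Nfkbiz was at -1.49 without KO-recovery replicates 1 and 3. Without KO-recovery replicate 3, 5 of the list fell. Of 28 immediate early genes 1 rose, Atf3 (0.59), or 2 without KO-OGD replicate 2 or KO-recovery replicate 2, and 4 fell, 2 without WT-recovery replicate 2. Ier2 went from 13.2, 13.8 and 9.69 to 4.81, 6.53 and 6.53 CPM (-1.05, adjusted p = 0.000244) and the nuclear receptor gene Nr4a3 from 2.51, 1.34 and 2.07 to 0.198, 0 and 0.0535 CPM (-4.25, adjusted p = 0.000370), which rests on 5 counts in KO-recovery, none of them in replicate 2.

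Pattern recognition and complement genes that passed were nearly all higher. Of 20 receptors and adaptors 6 rose and 1 fell. Clec7a, the fungal glucan receptor, went from 1949, 2067 and 1981 to 2786, 2861 and 2802 CPM (log2 fold change 0.49 with SE 0.09, adjusted p = 0.00104). Cd14, the lipopolysaccharide co-receptor, and Aim2, a sensor of cytosolic DNA, rose by 0.55 and 0.51 (adjusted p = 0.00109 and 0.00166), and the STING gene Tmem173 by 0.42. The fall was in Tlr2, from 229, 243 and 223 to 164, 161 and 194 CPM (log2 fold change -0.42 with SE 0.09, adjusted p = 0.00415). Of 18 complement genes 7 rose and none fell, with a median of 0.41, or 4 without WT-recovery replicate 3. C3, the central component, went from 447, 377 and 357 to 528, 534 and 594 CPM (log2 fold change 0.49 with SE 0.10, adjusted p = 0.00377), and C1ra, a protease of the classical pathway, rose by 0.70 (adjusted p = 0.00215). Cfb, of the alternative pathway, rose from 26.6, 28.02 and 16.3 to 43.03, 39.8 and 72.1 CPM (1.14, adjusted p = 0.00568), or by 0.75 without KO-recovery replicates 1 and 3, and it overlaps another gene. Against OGD, 5 complement genes were higher by interaction, including C3 (0.65) and Cfb (1.59), beside 2.81% of all autosomal genes.

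All 16 microglia defining markers passed the filter, with summed levels of 9816 to 11750 CPM in WT-recovery and 10860 to 12840 CPM in KO-recovery, ranges that overlap. Within them 4 rose and none fell, but single libraries decided this count: it was 2 without KO-recovery replicate 1 or 2, WT-recovery replicate 2 or 3 or KO-OGD replicate 3, and 1 fell without WT-recovery replicate 1. Fcrls, a microglial Fc receptor-like gene, went from 15.5, 17.4 and 19.7 to 34.9, 33.6 and 37.9 CPM (log2 fold change 1.01 with SE 0.10, adjusted p = 1.27e-05), and Irf8, a factor needed for microglia, from 81.6, 99.01 and 99.8 to 159.6, 175 and 140.3 CPM (log2 fold change 0.76 with SE 0.09, adjusted p = 6.47e-05). Both groups were fully apart in both genes. Cx3cr1, the locus of the reporter, was at 51.95, 58.6 and 56.1 and 68.02, 64.5 and 64.9 CPM (0.24, adjusted p = 0.0411), and this call was lost in 10 of 20 alternatives. Itgam (0.62) lost its call in 12. Of 27 homeostatic genes 4 rose and 4 fell (2 rose without KO-recovery replicate 1 or 2 or WT-recovery replicate 2 or 3, and 7 fell without KO-recovery replicate 3). The falls were Ltc4s, a leukotriene synthase (11.3, 16.7 and 11.2 to 2.58, 3.18 and 4.76 CPM, -1.91), Olfml3 (-0.87), Slco2b1 (-0.89) and Itgb5 (-0.44). P2ry12 and Tmem119, chosen after their values were seen, were at -0.41 and -0.28 without passing. Ltc4s, Slco2b1, Cx3cr1, Itgam and P2ry12 overlap other annotated genes.

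Of 26 transcription factor genes of microglia and macrophages 4 rose and 4 fell, shares not far from the 10.2% and 11.9% of all autosomal genes. Mitf, a driver of lysosome genes, went from 75.6, 72.7 and 80.9 to 114, 137 and 155 CPM (log2 fold change 0.82 with SE 0.13, adjusted p = 0.000362), and Runx1 rose by 0.41. Cebpb, a factor of inflammatory genes, fell from 10.3, 8.24 and 10.3 to 2.88, 4.65 and 5.46 CPM (log2 fold change -1.15 with SE 0.21, adjusted p = 0.00170). Sall3 fell by 1.62 (adjusted p = 8.40e-05). Mef2c rose by 0.49 and Hif1a fell by 0.47, and each lost its call without KO-recovery replicate 1 or 2 or WT-recovery replicate 2, Mef2c also without WT-recovery replicate 3. Hif1a was at -0.77 without KO-recovery replicates 1 and 3. Cebpb, Runx1 and Hif1a overlap other annotated genes. Of this list Irf8 and Mitf were higher against the OGD difference, and 3 were lower, among them Sall3 and Cebpb.

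Some genes of the disease-associated state and of lysosomes rose. Of 31 disease-associated genes 10 rose and 2 fell, with a median of 0.21. Lpl, the lipoprotein lipase, went from 5586, 4263 and 4151 to 6772, 7594 and 7407 CPM (log2 fold change 0.64 with SE 0.12, adjusted p = 0.00127), and Cd68, a lysosomal membrane protein of active phagocytes, from 1284, 1106 and 1288 to 1951, 2247 and 1574 CPM (log2 fold change 0.65 with SE 0.12, adjusted p = 0.00121). Lilr4b, a leukocyte immunoglobulin-like receptor gene, rose by 0.65, and Ank, a pyrophosphate exporter, fell by 0.50 (adjusted p = 0.000766). The falls numbered 1 without KO-recovery replicate 1 or 2 or WT-recovery replicate 2 and 4 without KO-recovery replicate 3. Of 34 lysosome genes 8 rose and none fell (median 0.20), and this count was among the least stable: 4 rose without KO-recovery replicate 1 or WT-recovery replicate 2 or 3, 5 without KO-recovery replicate 2, 13 without KO-recovery replicate 3 and 16 without WT-recovery replicate 1, and 2 fell without KO-recovery replicate 3 and 1 without KO-OGD replicate 2 or KO-recovery replicates 1 and 3. Ctsl, which encodes cathepsin L, rose by 0.64. Of 27 LXR target and lipid droplet genes 2 rose and 4 fell, against 10.2% and 11.9% of all autosomal genes, but 8 rose and 2 fell without KO-recovery replicates 1 and 3. Nr1h3, the gene of LXR alpha itself, went from 19.4, 22.6 and 18.3 to 12.3, 12.6 and 10.98 CPM (log2 fold change -0.76 with SE 0.12, adjusted p = 0.000342) and Smpdl3a fell by 0.60 (adjusted p = 0.000961). The falls of this list numbered 2 without WT-recovery replicate 2 or 3. Its rises numbered 8 without KO-recovery replicate 3 and 4 without KO-OGD replicate 2. They were down to 1 without KO-recovery replicate 1 or 2, WT-recovery replicate 2 or 3 or KO-OGD replicate 1 or 3.

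Receptors for dead cells, modified lipids and antibodies gave a mixed picture with 1 large fall. Marco was at 294, 219 and 199.5 CPM in WT-recovery replicates 1 to 3 and at 41.3, 42.9 and 44.8 CPM in those of KO-recovery. Marco, a scavenger receptor for bacteria and particles, fell by 2.46 on the log2 scale (SE 0.17, adjusted p = 8.96e-07), more than its fall right after OGD (-1.49, interaction -0.97, adjusted p = 0.0267). It was the 1 fall among 15 scavenger and lectin receptors, or 1 of 2 without KO-recovery replicate 3 or without KO-recovery replicates 1 and 3. The 3 rises, Msr1, Lgals1 and Lgals3, became 0 without WT-recovery replicate 3 and 1 without WT-recovery replicate 2. Of 22 phagocytosis and efferocytosis genes 3 rose and 4 fell, against 10.2% and 11.9% of all autosomal genes (5 rose without WT-recovery replicate 1, and 2 fell without KO-recovery replicate 1 or 2). Tyro3, a receptor kinase for dying cells, went from 8.33, 6.53 and 5.695 to 21.3, 25.3 and 14.1 CPM (log2 fold change 1.57 with SE 0.21, adjusted p = 0.000122). Anxa1, which promotes clearance, went from 1063, 775 and 795 to 1740, 1981 and 1483 CPM (log2 fold change 0.98 with SE 0.13, adjusted p = 9.18e-05), and Cd93 rose by 0.70. All KO libraries exceeded all WT libraries in these 3. Adgrb1 fell by 1.91, and Mfge8, a bridge between dying cells and integrins, by 0.63, a call lost in 9 of 20 alternatives. Of 17 Fc gamma receptor and ITAM genes 5 rose and 3 fell (3 rose without any of KO-recovery replicates 1 and 2 or WT-recovery replicates 1 and 2, and 5 fell without KO-recovery replicate 3). The inhibitory paired receptor gene Pilra fell from 154, 133 and 135 to 92.2, 84.9 and 106 CPM (-0.58), and its activating relative Pilrb1 by 1.01. Vav1, which signals below these receptors, rose by 0.39.

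Arg1 rose, and of the arginine and polyamine genes tested with it 4 fell and 13 were not called. Arg1 was at 11.1, 10.99 and 14.9 CPM in WT-recovery replicates 1 to 3 and at 72.4, 71.1 and 65.5 CPM in those of KO-recovery. Arginase 1 splits arginine into ornithine and urea and marks macrophages of alternative activation; its gene rose by 2.50 (SE 0.15, adjusted p = 7.69e-08) and more than right after OGD (0.53, interaction 1.96). Of the 18 in all, Arg1 was the only one called higher (2 were without KO-recovery replicate 3 or without KO-recovery replicates 1 and 3). Oaz1, the ornithine decarboxylase antizyme, fell from 84.4, 88.6 and 77.4 to 47.1, 50.2 and 64.95 CPM (log2 fold change -0.62 with SE 0.10, adjusted p = 0.000694), and Amd1, Odc1 and Aldh18a1 of polyamine and ornithine synthesis by 0.81, 0.41 and 0.36. Of 20 alternatives Amd1 lost its call in 3 and was at -1.40 without KO-recovery replicates 1 and 3, Odc1 lost it in 5, and Aldh18a1 lost it in 13, among them DESeq2, the replicate block (-0.37, adjusted p = 0.0538) and leaving out KO-recovery replicates 1 and 3 (-0.29, adjusted p = 0.283). The falls numbered 2 without KO-recovery replicate 1 or WT-recovery replicate 3 and 1 without WT-recovery replicate 2. Saa3 was at 54.3, 73.1 and 54.8 CPM in WT-recovery replicates 1 to 3 and at 204, 268 and 414 CPM in those of KO-recovery. Saa3, an acute phase protein, rose by 2.28 (SE 0.22, adjusted p = 4.29e-05). Right after OGD its log2 fold change was -0.08. Of 21 genes of alternative activation and the acute phase 5 rose and 3 fell (3 rose without KO-recovery replicate 1 or 2 or WT-recovery replicate 2 or 3, and 5 fell without KO-recovery replicate 3). Socs3 rose by 0.51, and the transglutaminase gene Tgm2 fell by 0.78. The typical alternative activation genes Chil3 and Mrc1, chosen after their values were seen, were at -0.08 and 0.06 without passing, and Retnla was below the filter.

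Several secreted matrix proteases rose, and the inhibitor gene Timp3 fell. Mmp9 was at 7.88, 4.09 and 2.96 CPM in WT-recovery replicates 1 to 3 and at 24.5, 16 and 33.2 CPM in those of KO-recovery. Mmp9, the gelatinase that opens the blood-brain barrier after stroke, rose by 2.38 (SE 0.42, adjusted p = 0.00255), and with KO-recovery replicate 2 as the only KO library it was 1.74 without passing (adjusted p = 0.0550). Mmp27 and Mmp8 rose by 1.64 and 0.77, and Plau, the urokinase that activates plasmin, went from 658, 494 and 453 to 957, 951 and 1072 CPM (log2 fold change 0.89 with SE 0.14, adjusted p = 0.000403). Timp3, an inhibitor of matrix proteases, fell by 1.45, which did not pass without KO-recovery replicates 1 and 3 (-1.83, adjusted p = 0.0909), and the membrane-bound proteases Mmp14 and Mmp15 fell, with log2 fold changes -1.11 and -2.89 (adjusted p = 0.000186 and 0.000235). In all, 6 of 20 rose and 4 fell, or 4 and 2 without KO-recovery replicates 1 and 3. Neutrophil markers, a list that includes Mmp8 and Mmp9, had summed levels of 406 to 543 CPM in WT-recovery and 744 to 897 CPM in KO-recovery. Outside these proteases the 3 tested were S100a8 and Cxcr2, not called, and Csf3r, higher by 0.84. Ly6g and Padi4 were at 0 in all recovery libraries and Mpo, Elane, Camp, Ngp and Ltf below the filter, and the part of neutrophils in these results was not tested.

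Of 21 growth factor genes of microglia 3 rose and 3 fell, against 10.2% and 11.9% of all autosomal genes (1 rose without WT-recovery replicate 2, and 5 fell without KO-recovery replicate 3). The rises were Pdgfa, Igf1 and Igf2, the last with the muscle genes of KO-recovery replicates 1 and 3 described further down. Fgf1 was at 6.51, 4.21 and 4.36 CPM in WT-recovery replicates 1 to 3 and at 1.74, 0.898 and 0.482 CPM in those of KO-recovery. Fgf1 fell by 2.21 (adjusted p = 0.00148) after a like difference right after OGD (-2.56). Outside the list, the neurotrophin receptor gene Ngfr fell from 11.7, 15.1 and 13.5 to 1.04, 0.245 and 0.750 CPM (log2 fold change -4.20 with SE 0.43, adjusted p = 2.34e-05). Tgfb2, which overlaps another gene, fell by 1.88, or by 3.92 without KO-recovery replicates 1 and 3. Igf1, a trophic factor of microglia, was at 807, 719.8 and 772 and 1029, 1293 and 784 CPM (0.43), groups that overlap, and its call was lost without any 1 of 5 of the 6 recovery libraries, KO-recovery replicate 3 being the exception. It was at 0.75 without KO-recovery replicates 1 and 3.

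Genes that make NADPH and genes that defend against oxidants fell in part. Of 12 pentose phosphate and NADPH genes 6 fell and none rose, with a median of -0.29, or 3 without KO-recovery replicate 1, and 1 rose without KO-recovery replicates 1 and 3. Me1 was at 28.8, 28.99 and 27.5 CPM in WT-recovery replicates 1 to 3 and at 10.8, 11.2 and 15.1 CPM in those of KO-recovery. For Taldo1 the values were 535, 542 and 580 CPM in WT-recovery and 306, 323 and 385 CPM in KO-recovery. Malic enzyme 1 and transaldolase make NADPH and move sugars within the pentose phosphate pathway, and their genes fell by 1.2 and 0.71 (adjusted p = 4.49e-05 and 0.000165). Idh1 fell by 0.60 and Pgd by 0.51, the latter lost without KO-recovery replicate 1 (-0.41, adjusted p = 0.0569). Of 30 NRF2, glutathione and thioredoxin genes 10 fell and none rose, with a median of -0.31, and 19 fell without KO-recovery replicate 3. Cat was at 321, 316 and 363 CPM in WT-recovery replicates 1 to 3 and at 178, 183 and 246 CPM in those of KO-recovery. For Gsr the values were 88.6, 108 and 105 CPM in WT-recovery and 42.5, 41.9 and 74.9 CPM in KO-recovery. Catalase breaks down hydrogen peroxide and glutathione reductase restores glutathione with NADPH. Gsr was chosen after its values were seen. Both genes fell by 0.72 (adjusted p = 0.00209) and 0.92 (adjusted p = 0.00656). The mitochondrial superoxide dismutase gene Sod2 fell from 139, 138 and 127 to 91.2, 107 and 102 CPM (log2 fold change -0.43 with SE 0.08, adjusted p = 0.00173). Gpx4, which repairs lipid peroxides, fell by 0.41, which did not pass without KO-recovery replicates 1 and 3 (-0.23, adjusted p = 0.141). Nfe2l2, the gene of NRF2 itself, and its target Nqo1, both chosen after their values were seen, were at -0.13 and -0.07 without passing. Against OGD, Me1, Taldo1 and Cat were lower by interaction (-1.02, -0.82 and -1.05), and right after OGD none of the 12 NADPH genes had been called. Me1 overlaps another gene.

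In sugar breakdown called falls outnumbered called rises, but the list as a whole did not fall. Of 25 glycolysis and lactate genes 2 rose and 6 fell, against 10.2% and 11.9% of all autosomal genes, with a positive median of 0.14. With DESeq2 4 rose and 6 fell, and with no low-count filter 5 rose and 6 fell. Summed levels were 4615 to 5422 CPM in WT-recovery and 5182 to 5677 CPM in KO-recovery and overlapped. The falls included Eno1 (352, 291 and 298 to 186, 225 and 204 CPM, -0.61), Aldoc (-0.60), Ldhb (-0.46) and Pfkm (-0.55), which encode enolase 1, aldolase C, a lactate dehydrogenase subunit and muscle phosphofructokinase. Pfkm overlaps other genes and did not pass without KO-recovery replicates 1 and 3 (-0.49, adjusted p = 0.0682). Eno1b was at 4.11, 5.37 and 5.92 CPM in WT-recovery replicates 1 to 3 and at 58.6, 68.01 and 72.5 CPM in those of KO-recovery. Eno1b is an intronless copy of Eno1 and rose by 3.66 (SE 0.13, adjusted p = 8.10e-11), as it had right after OGD (3.38), and reads may move between both copies. Eno2 and the myeloid hexokinase gene Hk3 rose by 0.91 and 0.71. Of 7 fructose and polyol genes tested 1 rose and 1 fell. Akr1b3, the aldose reductase that turns glucose towards sorbitol and fructose, fell from 53.7, 58.4 and 58.9 to 43.5, 43.4 and 45.5 CPM (log2 fold change -0.37 with SE 0.07, adjusted p = 0.00182). Akr1b8 rose by 0.67, a call lost without WT-recovery replicate 2 (0.57, adjusted p = 0.0618) or 3 (0.51, 0.0558). Khk, ketohexokinase, and Sord, which makes fructose from sorbitol, chosen after their values were seen, were at 0.04 and -0.01 without passing. Of 24 HIF targets 2 rose and 3 fell. The counts of these and of the cholesterol and fatty acid genes below stand beside 10.2% higher and 11.9% lower among all autosomal genes. Ndrg1 went from 23.4, 20.6 and 20.5 to 38.2, 41.2 and 35.9 CPM (log2 fold change 0.84 with SE 0.10, adjusted p = 4.89e-05) and Mxi1 fell by 0.43 (adjusted p = 0.00178), both with overlapping genes. The other rise, Hilpda, was lost in 12 of 20 alternatives, and 1 fell without WT-recovery replicate 2, while 1 rose and 1 fell without KO-recovery replicates 1 and 3. Of 31 cholesterol and fatty acid synthesis genes 4 fell and none rose, 2 rising without KO-recovery replicate 3 or without KO-recovery replicates 1 and 3: the falls included Elovl6 (-0.82), Hmgcs1 (-0.84) and Msmo1 (-0.46). Hmgcs1 did not pass without KO-recovery replicates 1 and 3 (-0.87, adjusted p = 0.102), and Msmo1 lost its call in 5 of 20 alternatives.

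Some transcripts of cytosolic ribosomes and of the respiratory chain fell, but less so without the 2 libraries that stood apart. Without KO-recovery replicates 1 and 3, 2 rose and 6 fell in the ribosomal list, with a median of -0.05, and 2 rose and 5 fell in the respiratory list, with a median of -0.02. Of 44 cytosolic ribosomal protein genes 14 fell and none rose, with a median of -0.22 where right after OGD it was 0.16 with none called, and 11 were lower by interaction. Rplp0, of the ribosomal stalk, went from 594, 635 and 634 to 433, 485 and 484 CPM (log2 fold change -0.41 with SE 0.08, adjusted p = 0.00254), and Rps20 from 185, 163 and 173 to 109.9, 130 and 106 CPM (log2 fold change -0.59 with SE 0.10, adjusted p = 0.000815). Of 42 nuclear respiratory chain genes 10 fell and none rose, with a median of -0.11. Ndufa4 went from 104, 108 and 109 to 57.9, 69.5 and 68.5 CPM (log2 fold change -0.71 with SE 0.08, adjusted p = 3.28e-05), and Cox5a from 137, 163 and 147 to 86.4, 92.1 and 119.7 CPM (log2 fold change -0.59 with SE 0.11, adjusted p = 0.00186). Without KO-recovery replicate 1 the falls were 7 and 6, and without KO-recovery replicate 3, 2 respiratory genes rose. Mitochondrial ribosomal protein genes had 1 rise and 1 fall of 34 and a median of 0.02, with 4 rises without KO-OGD replicate 2, 3 without KO-recovery replicate 3, 2 without KO-recovery replicate 1 or WT-OGD replicate 1 or 2 and 0 without KO-recovery replicate 2 or any 1 WT-recovery library. Its falls numbered 3 without KO-recovery replicate 2, 0 without KO-recovery replicates 1 and 3 and 2 without KO-recovery replicate 3 or WT-recovery replicate 2. Over protein-coding genes with at least 10 CPM, the share called lower was 23.03% for those with under 1 kb of annotated exon sequence, 19.7% from 1 to 2 kb and 6.79% above 8 kb, and the share called higher went from 8.43% to 17.8%. The median exon length was 1835 bases in the cytosolic ribosomal list and 2014.5 in the respiratory list. The part of transcript length in these falls was not tested.

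Amino acid supply and protein folding genes split. Of 26 ATF4 targets and amino acid genes 3 rose and 10 fell (5 rose without KO-recovery replicate 3), with a median of -0.30. Slc7a5, the transporter of large neutral amino acids, went from 19.9, 17.8 and 15.8 to 8.82, 5.55 and 7.01 CPM (log2 fold change -1.28 with SE 0.15, adjusted p = 5.63e-05), and Phgdh, the first enzyme of serine synthesis, from 28.4, 35.5 and 29.9 to 15.9, 16.5 and 20.1 CPM (log2 fold change -0.84 with SE 0.12, adjusted p = 0.000201). Vldlr fell by 1.71. Against them Atf3 went from 232, 171 and 185 to 289, 301 and 297 CPM (log2 fold change 0.59 with SE 0.10, adjusted p = 0.000653) and the glutamine carrier gene Slc1a5 rose by 0.56. Atf4 itself, chosen after its value was seen, was at 0.23 without passing. Of 20 cytosolic aminoacyl-tRNA synthetase genes 3 rose and none fell, but the rises were 0 without WT-recovery replicate 2, 1 without KO-recovery replicate 2, and 5 without KO-recovery replicate 3, KO-OGD replicate 2 or KO-recovery replicates 1 and 3, and 1 fell without KO-recovery replicate 3. Of 30 chaperone genes 5 rose and 1 fell. All 5 rises belong to the endoplasmic reticulum, among them Calr, which also loads class I molecules (1016, 933 and 858 to 1517, 1641 and 1392 CPM, 0.70, adjusted p = 0.00424), Pdia3 (0.50) and Edem1 (0.31). They numbered 3 without KO-recovery replicate 2 or WT-recovery replicate 2 or 3 and 11 without KO-OGD replicate 2. The fall, Xbp1 (-0.31), was lost in 8 of 20 alternatives, and 5 fell without KO-recovery replicate 3 and 3 without KO-recovery replicates 1 and 3.

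DNA replication and mitosis genes differed from their pattern right after OGD. Right after OGD, 16 of 38 replication genes and 35 of 39 mitosis genes were lower in the knockout, with medians of -0.39 and -0.97, and none were higher. Among all autosomal genes 6.47% were lower and 0.93% higher at that time. After recovery 9 replication genes rose and none fell (15 rose without KO-OGD replicate 2, and 3 fell without KO-recovery replicate 3 and 1 without KO-recovery replicates 1 and 3), and 1 mitosis gene rose and 2 fell (1 without KO-recovery replicates 1 and 3), with medians of 0.26 and 0.10. By interaction 19 replication genes and 30 mitosis genes were higher and none lower, against 2.81% higher and 2.33% lower among all autosomal genes. Mcm5, of the replicative helicase, was at 27.5, 31.6 and 26.4 in WT-recovery and 45.5, 43.8 and 39.6 CPM in KO-recovery (log2 fold change 0.59 with SE 0.11, adjusted p = 0.00188; interaction 1.68, adjusted p = 6.69e-05). Pole was at 5.59, 6.17 and 4.88 CPM in WT-recovery replicates 1 to 3 and at 11.4, 11.02 and 9.16 CPM in those of KO-recovery. Pole, the leading strand polymerase, rose by 0.92 (adjusted p = 0.00751) after -1.26 right after OGD. Clspn, a replication checkpoint adaptor, went from 7.88, 7.996 and 8.06 to 12.6, 13.96 and 12.96 CPM (0.72, adjusted p = 0.0105; -1.46 right after OGD). Chaf1b and Ccne1 rose by 0.66 and 0.51. The mitosis calls rest on single libraries: the rise of Kif23 (0.37) was lost without any 1 of the 6 recovery libraries, and the falls of Birc5 (-0.53) and Stmn1 (-0.38) without KO-recovery replicate 1, without KO-recovery replicates 1 and 3 and, respectively, WT-recovery replicate 1 or 3.

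**Figure D4:**
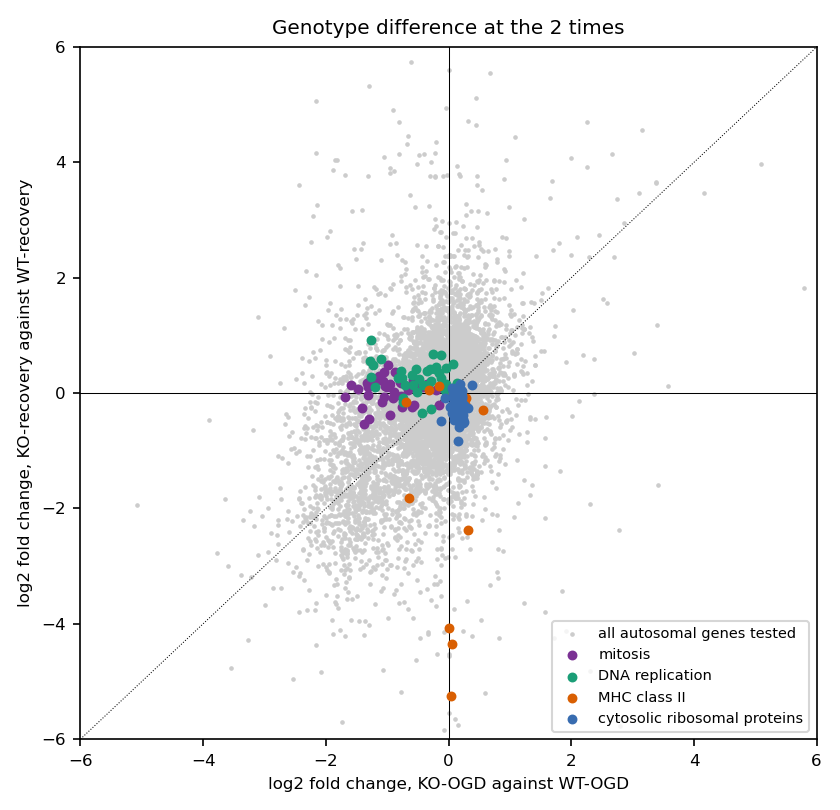
Log2 fold change of KO against WT right after OGD (x axis) and after recovery (y axis) for each autosomal gene tested, with 4 lists in colour and the dotted line of equal change; 16 genes lie outside the axes. Mitosis and DNA replication genes lie left of 0 and near or above 0 on the y axis, 5 class II genes lie far below 0 on the y axis, and ribosomal protein genes lie right of 0 on the x axis and mostly below 0 on the y axis.

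Set against the whole OGD comparison, more genes were called after recovery. Right after OGD 1344 autosomal genes (7.4%) were called, 169 higher (0.93%) and 1175 lower (6.47%). Of the rises 85 were called at both times, 4.61% of the recovery rises and 50.3% of the OGD rises. Of the falls 556 were, 25.6% of the recovery falls and 47.3% of the OGD falls, and 44 genes were called in opposite directions. The difference itself changed between the times for 934 genes (5.14%), 511 upwards and 423 downwards, of which 732 were among the recovery calls (18.2% of them). Among falls held at both times was Pdpn, podoplanin, from 52.2, 36.6 and 33.5 to 1.54, 1.39 and 1.499 CPM (log2 fold change -4.76 with SE 0.28, adjusted p = 2.16e-07; -3.55 right after OGD). Chgb, a secretory granule protein, went from 12.4, 16.5 and 12.7 to 0.744, 0.0817 and 0.375 CPM (log2 fold change -4.97 with SE 0.35, adjusted p = 3.60e-07; -2.53 right after OGD) and Disp3, a sterol-sensing membrane protein, from 17.1, 19.4 and 17.1 to 0.892, 1.55 and 0.482 CPM (log2 fold change -4.28 with SE 0.34, adjusted p = 1.61e-06). Disp3 is named for its fall after recovery, as are the sulfotransferase gene Chst2 (-3.65) and Igfbp7, an insulin-like growth factor binding protein (-3.70). The fall of Igfbp7 departed from its difference right after OGD (interaction -3.49), and this gene overlaps another. Camk2b, a calcium-dependent kinase, rose at both times (2.48 after recovery, 1.70 right after OGD).

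Transcripts of other cell types were lower or uneven in KO-recovery. Of 13 astrocyte markers 8 fell and none rose, with a median of -1.57, and summed levels were 287 to 318 CPM in WT-recovery and 74.7 to 155 CPM in KO-recovery. Gfap, the astrocyte filament, went from 59.1, 51.1 and 41.2 to 12.2, 16.1 and 6.69 CPM (log2 fold change -2.14 with SE 0.35, adjusted p = 0.00203), and without KO-recovery replicates 1 and 3 it did not pass (-1.65, adjusted p = 0.0513). Right after OGD 12 of the 13 were lower already, beside 6.47% of all autosomal genes. Without KO-recovery replicates 1 and 3, 3 fell and 1 rose, and without replicate 3 alone 1 rose. Sox10, Olig1 and Olig2, factors of the oligodendrocyte lineage, fell by 4.13, 3.24 and 3.01. Only 4 of 12 markers of that lineage fell, and the myelin genes Mbp and Cnp, chosen after their values were seen, were at -0.10 and 0.02. Summed levels of this list were 303 to 329.6 against 247 to 307 CPM and overlapped. Of 13 neuron markers 4 fell, among them Rtn1 (47.4, 48.2 and 42.8 to 8.58, 8.25 and 4.34 CPM, -2.72), none rose (2 rose without KO-recovery replicate 2), and sums were 86.0 to 109 against 19.7 to 56.4 CPM. Their part in falls such as Chgb, Fgf1 or Ngfr was not tested.

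Some markers of other myeloid cells rose. Of 14 border macrophage markers 6 rose and none fell, with 5 to 7 rising over the alternatives. F13a1 was at 2.17, 2.08 and 2.59 CPM in WT-recovery replicates 1 to 3 and at 14.6, 14.1 and 6.91 CPM in those of KO-recovery. For Folr2 the values were 11.7, 6.65 and 6.804 CPM in WT-recovery and 36.4, 41.9 and 16.9 CPM in KO-recovery. Coagulation factor XIII A and folate receptor beta mark macrophages of the brain's borders, and their genes rose by 2.37 and 1.96 (adjusted p = 0.000118 and 0.00119), with KO-recovery replicate 3 the lowest of its group. Siglec1 went from 86.9, 98.1 and 82.3 to 177, 171 and 157 CPM (log2 fold change 0.92 with SE 0.10, adjusted p = 2.02e-05). Mrc1, Cd163 and Lyve1, further markers of these cells chosen after their values were seen, were at 0.06, 0.65 and 1.82 without passing, and summed levels overlapped (1760 to 2457 against 2275 to 2809 CPM). Of 9 monocyte markers 3 rose, including Ms4a4c (1.97), and Itgal fell (-1.08), joined by 1 more without KO-recovery replicate 3. The monocyte sums were 758.6 to 1097 against 1355 to 1438 CPM, with Ly6c2 and Plac8 below the filter. The most abundant genes of this list were Fn1, Itgal and Chil3, of which Chil3 did not pass. Fn1 rose by 1.125 (adjusted p = 0.0322), a call kept in 14 of 20 alternatives and lost without KO-recovery replicates 1 and 3. Of 4 lymphocyte markers tested none was called (1 rose without KO-recovery replicate 3), and Cd3e, Cd3g, Cd8a, Nkg7, Ncr1 and Gzma were at 0 in all 6 libraries. The part of these cells in the chemokine, interferon and matrix protease results was not tested.

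Muscle and cartilage transcripts were high in 2 of the 3 knockout libraries, and summed fibroblast transcripts were highest in those 2 and lowest in the third. Acta1 was at 0.571, 0.0610 and 0.148 CPM in WT-recovery replicates 1 to 3 and at 37.6, 0.980 and 36.4 CPM in those of KO-recovery. For Col2a1 the values were 1.14, 0.122 and 0.0740 CPM in WT-recovery and 20.9, 1.63 and 18.7 CPM in KO-recovery. The WT-recovery libraries had 0.913, 0.733 and 0.666 CPM of Mylpf, and the KO-recovery libraries 16.8, 1.39 and 15.8 CPM. These genes of skeletal muscle actin, cartilage collagen and fast muscle myosin were high in KO-recovery replicates 1 and 3, while replicate 2 lay far nearer to the WT libraries. Igf2, a fetal growth factor, followed the same libraries (53.3, 1.55 and 47.2 CPM against 0.913, 0.244 and 0.370 CPM), and its reads were counted alike for the overlapping Gm49394. Lum, a connective tissue proteoglycan, had 175, 9 and 120 counts in KO-recovery and 1, 0 and 0 in WT-recovery, a depth-scaled ratio of KO over WT of 230 (exact 95% counting interval 41.0 to 9115). Of 12 muscle and cartilage markers 6 rose, and of 15 fibroblast markers 3 rose and 1 fell, but without KO-recovery replicates 1 and 3 these were 0, 1 and 3, and 1 muscle marker fell. Without KO-recovery replicate 2 they were 10, 5 and 1. The fibroblast rises were also 1 without WT-recovery replicate 2 or 3, and its falls 0 without KO-recovery replicate 3 or WT-recovery replicate 2 and 2 without KO-recovery replicate 1 or WT-recovery replicate 1. Summed fibroblast markers were 424.6, 38.7 and 340.4 CPM in KO-recovery and 121 to 208 CPM in WT-recovery. Of the 235 called genes named by the rule, 185 kept their call without these 2 libraries and 50 did not, with none reversed. Of 8 endothelial and mural markers 2 rose and 1 fell (1 rose without WT-recovery replicate 2 or KO-recovery replicates 1 and 3), of which Flt1 rose from 80.3, 64.03 and 62.05 to 123, 128 and 112 CPM (log2 fold change 0.82 with SE 0.12, adjusted p = 0.000323) and the fall of Acta2 was lost in 13 alternatives.

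**Figure D5:**
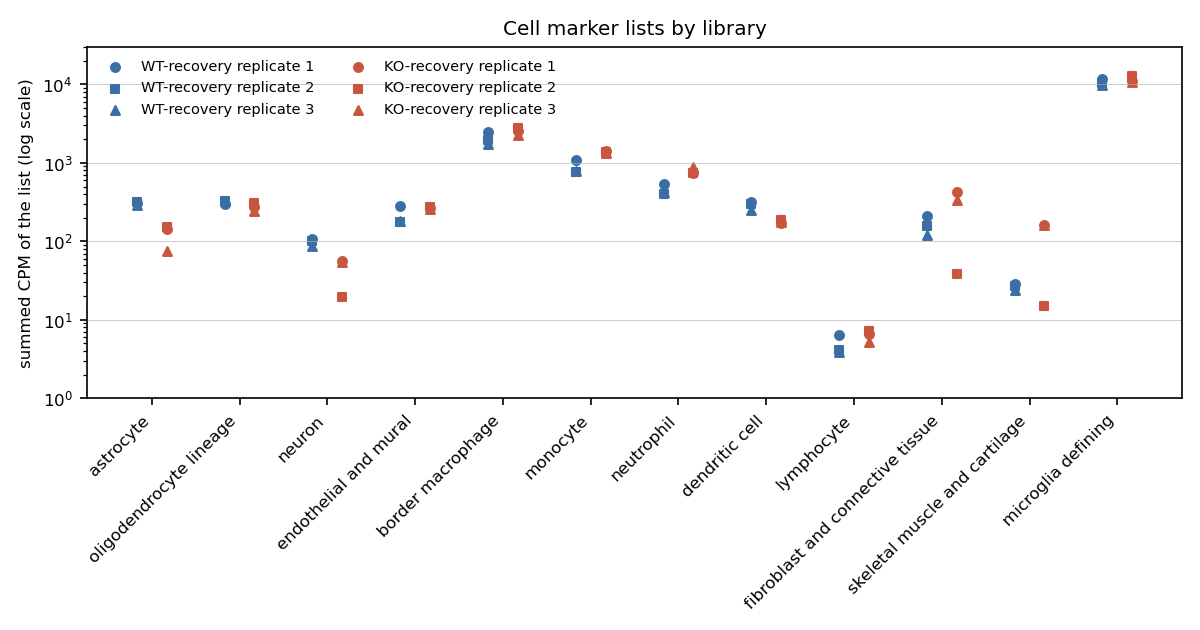
Summed CPM (log scale) of each cell marker list in each recovery library; colour marks the group and shape the replicate. Astrocyte, neuron and dendritic cell sums are lower in all KO-recovery libraries, monocyte and neutrophil sums are higher in all of them, fibroblast and muscle sums set KO-recovery replicate 2 apart from replicates 1 and 3, and microglia sums overlap.

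H2-Q1 had the largest fitted rise of the genes named by size and the least certain. H2-Q1 was at 0.457, 0.183 and 0.222 CPM in WT-recovery replicates 1 to 3 and at 21.4, 71.5 and 15.6 CPM in those of KO-recovery. This nonclassical class I gene rose by 7.07 (SE 2.11, adjusted p = 0.0449), a call lost in 11 of 20 alternatives. In the OGD libraries it varied widely within each genotype, from 1.39 to 47.9 CPM in WT-OGD and from 3.88 to 27.2 CPM in KO-OGD, with no genotype difference called.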

How the data were processed

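RNA of sorted microglia was sequenced in 12 libraries, 3 a group. The deposited table holds raw read counts per gene for 55421 genes, which the authors made with HISAT2 and featureCounts on GRCm38, per the submitters' processing notes. Tool versions, annotation release and strand setting are not given in the sources used here. Symbols, positions and exon lengths came from GENCODE M21, and promoter sequences from RefSeq. All 12 count columns were mapped by library name and 0 were left unused.

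From these counts edgeR 4.0.16 in R 4.3.3 (filterByExpr, TMM scaling, robust quasi-likelihood fit) gave 4 group means over 12 libraries. Differences were tested after recovery, after OGD and between both (interaction), with Benjamini-Hochberg adjustment over 18842 genes, X and Y included, and called at an adjusted p under 0.05. The SE is the log2 fold change divided by the square root of F. CPM divide each count by the library size after TMM scaling. The method was tested on simulated data. The common biological coefficient of variation was 0.119. Counting intervals and floors cover counting error only.

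The members and the 38 gene and 12 marker lists were chosen with earlier results of these data known. Named genes were the 12 protein-coding rises and 12 falls of largest size among called genes of at least 10 CPM whose groups did not overlap, up to 4 called members of each list in each direction by smallest p, all class II genes, Slc2a5, and the 5 largest interactions each way. For the genes named by size, groups that do not overlap were thus part of the rule. Others are said to be chosen after their values were seen. Among these are H2-Q4, Tap1, Mmp12 and Mmp13 in the plots by library. The alternatives were DESeq2 1.42.0, RLE scaling, no filter on low counts, the 6 recovery libraries alone, a replicate block, removal of X, Y and mitochondrial genes, thinning to 9885259 counts, leaving out each library, and leaving out KO-recovery replicates 1 and 3.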

Additional observations from a re-analysis of the deposited data

Results flagged for a closer look

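For 10 genes named for the size of the change, the genotype difference after recovery departed from that right after OGD by edgeR's interaction test, and the value given is the recovery difference less the OGD difference on the log2 scale. Upwards these were Col2a1 at 6.61, Cenpp at 2.46, Saa3 at 2.36, Clspn at 2.18 and Pole at 2.18. Downwards they were Ccr1l1 at -6.81, H2-Eb1 at -5.30, Ccl22 at -5.06, Ngfr at -4.58 and Ccl17 at -4.46. Col2a1, the cartilage collagen gene high in KO-recovery replicates 1 and 3, lost this call in 12 alternatives, and Cenpp, which encodes a kinetochore protein, and Ccl22 lost it without those 2 libraries. Cenpp also lost it without WT-recovery replicate 3 (2.33, adjusted p = 0.0509). Ccr1l1 had 67 counts over the WT-OGD libraries and 13774 over the KO-OGD libraries, while after recovery the groups had 2766 and 7420.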

How the results depend on the processing

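No gene called after recovery was called in the opposite direction in any of the 20 alternatives, and 158 of the 235 called genes named by the rule held their call in all of them. The 4014 recovery calls became 2646 (1096 higher) with only the 6 recovery libraries, where the ATF4 list had 6 falls, and 2534 to 5093 when 1 library was left out (1053 to 2295 higher, 1481 to 2830 lower). The lowest count came without WT-recovery replicate 2 and the highest without KO-recovery replicate 3. The share of higher calls was 45.9% and ranged from 41.4% to 50.1%. Of the 230 called named genes tested with only the 6 recovery libraries, 33 lost their call. Some of these losses, such as those of Itgal and Msr1, are not marked beside the results.

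The 934 interaction calls (511 higher, 423 lower) were less stable. They numbered 1445 with DESeq2 (759 lower), 1871 with no low-count filter (1018 higher, 853 lower), 567 thinned to equal depth (309 higher, 258 lower), and 454 to 1695 without 1 library (235 to 852 higher, 219 to 843 lower). With X, Y and mitochondrial genes removed, 43.7% of them were higher against 54.7%. The cause was not tested, except that fewer counts were available after thinning.

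The replicate block gave 3495 recovery calls and 624 interaction calls (355 higher, 269 lower). Same-numbered libraries did not deviate together (r of -0.012, -0.0734 and 0.00109), so the numbers were not taken as pairs.

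Over all autosomal genes called, 11 changed sign without KO-recovery replicates 1 and 3, none of them passing there, and none did in the other 19 alternatives. Among the genes named in the text, signs reversed in 4 class II genes near 0 that were not called. H2-Oa was at 0.195 without KO-recovery replicates 1 and 3 and from -0.4292 to 0.2040 without 1 library. Rfx5 was at -0.0009 thinned and at -0.0675 to 0.1017 without 1 library. Rfxap was at 0.0076 thinned, 0.3176 without KO-recovery replicates 1 and 3 and -0.2158 to 0.0587 without 1 library. Rfxank was at 0.0061 with DESeq2, 0.0043 with RLE, 0.0065 unfiltered, 0.0016 with 6 libraries, 0.0233 thinned and -0.0255 to 0.0079 without 1 library.

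Depth limits Slc2a5, Ccr7, Nr4a3 and Lum, which rest on few counts in at least 1 group.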
